A study of Mus musculus with 9 samples.

Results

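The interferon-induced transmembrane genes Ifitm1, Ifitm2, Ifitm3 and Ifitm6 were followed across 9 RNA libraries of mouse myeloid cells. They are 4 of the 54532 genes in the deposited table and were found by their symbols, each of which matched 1 Ensembl gene. The members were chosen by their FPKM in the fl, KO and Gr_1 libraries. Their differences between groups are therefore given as a description, with no test, and tests are kept for other genes. Expression is in FPKM, fragments per kilobase of exon, scaled by a total per library, so levels can be compared between genes.

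The libraries fall into 3 groups of 3, named fl, KO and Gr_1 in the titles, with a letter A, B or C each. All come from C57BL/6 mice of 6 to 8 weeks of age, from a source called white cells with the cell type given as myeloid. The fl and Gr_1 libraries carry the label wild type and the KO libraries the label SOCS3 KO. What fl and Gr_1 stand for, the tissue, the cells in which Socs3 was deleted and whether libraries came from separate animals are not stated in the labels. The spread that p-values rest on is therefore that between these samples and may be technical.

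IFITM proteins are small proteins of the plasma membrane and of endosomes that hinder the fusion of enveloped viruses with cell membranes. Interferons raise their genes. Type I interferons do so through factors that bind interferon-stimulated response elements in promoters. Myeloid cells also hold IFITM proteins without infection. Ifitm3 acts mainly in late endosomes and restricts influenza virus, Ifitm1 is found more at the cell surface, and Ifitm2 is a close relative of Ifitm3. Socs3, the gene named in the KO label, encodes an inhibitor of cytokine receptors that signal through STAT3.

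The 4 members lie together on chromosome 7 (GRCm38, GENCODE M21). Ifitm2 (ENSMUSG00000060591) spans bases 140954837 to 140955987 on the minus strand. Ifitm1 (ENSMUSG00000025491) spans 140967221 to 140969825 on the plus strand. Ifitm3 (ENSMUSG00000025492) spans 141009586 to 141010770 and Ifitm6 (ENSMUSG00000059108) 141015699 to 141017924, both on the minus strand. Their coding sequences, of 312 to 432 bases, are relatives. Ifitm1 was identical to Ifitm2 and to Ifitm3 at 82.1% of aligned bases each and Ifitm2 to Ifitm3 at 80.9%, while Ifitm6 matched the other members at 66.3% to 70.4%.

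Promoter windows of the members, 1 per gene, are shown with their matches to a motif through which interferon acts. RefSeq windows of 300 bases around the start site (GRCm38.p6) were searched on both strands for the core of the interferon-stimulated response element, which is GAAA, any 2 bases and GAAA. The window of Ifitm3 held 2 matches and that of Ifitm2 held 1, against none in those of Ifitm1 and Ifitm6. Of all 32851 windows of this length 3.44% held a match, and of the 49 listed interferon-stimulated genes with a window 26 did (53.1%). The 150 bases just upstream of the first annotated exon base in each window follow, 5′ to 3′ on the gene's strand, with matches in capitals. Longer transcripts of Ifitm1 and Ifitm6 start further upstream, so the stretches of those genes lie in an intron of such transcripts. The promoters of those longer transcripts were not searched, so the lack of a match holds for these windows only. The stretches are chr7:140967878-140968027 for Ifitm1, chr7:140955988-140956137 for Ifitm2, chr7:141010771-141010920 for Ifitm3 and chr7:141016909-141017058 for Ifitm6.
Ifitm1: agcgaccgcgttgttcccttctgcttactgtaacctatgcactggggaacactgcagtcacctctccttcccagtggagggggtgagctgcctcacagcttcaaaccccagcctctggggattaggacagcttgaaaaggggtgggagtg
Ifitm2: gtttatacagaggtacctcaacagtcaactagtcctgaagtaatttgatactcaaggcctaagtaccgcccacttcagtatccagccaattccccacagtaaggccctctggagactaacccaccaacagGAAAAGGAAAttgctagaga
Ifitm3: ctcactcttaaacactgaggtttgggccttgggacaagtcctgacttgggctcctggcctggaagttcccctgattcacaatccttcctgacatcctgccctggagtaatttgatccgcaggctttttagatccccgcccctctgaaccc
Ifitm6: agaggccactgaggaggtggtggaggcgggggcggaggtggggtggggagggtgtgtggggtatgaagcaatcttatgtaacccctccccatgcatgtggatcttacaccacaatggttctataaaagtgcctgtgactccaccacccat

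The Ifitm2 match began 46 bases before the RefSeq start site. The matches of Ifitm3 began 3 and 20 bases after its start site, inside the first annotated exon, and the second of them is GAAACCGAAA. The gamma activated sequence TTCNNNGAA, a motif of STAT proteins, matched once in Ifitm3, where TTCTGAGAA overlaps the second element, and once in Ifitm6, where TTCCTTGAA began 10 bases before the start site. That motif was in 8.3% of all windows. Neither the core GAGGAA of the myeloid factor PU.1 (28.3% of windows) nor TTGCNNAA of the C/EBP factors (10.8%) was found in any of the 4 windows. The Ifitm3 site lies at chr7:141010715-141010743 with its 2 response element cores in capitals, and the Ifitm6 site at chr7:141016884-141016912 with the gamma activated sequence in capitals.
Ifitm3 site: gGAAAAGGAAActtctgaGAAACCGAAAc
Ifitm6 site: ccatatgaacTTCCTTGAAacaagagctt

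Counting can be uncertain where relatives share sequence. In stretches of 125 bases, the shorter read length given in the labels, no sequence of Ifitm1, Ifitm3 or Ifitm6 transcripts occurred in a transcript of another gene. For Ifitm2 27.1% of the stretches did, all in Gm45717, an annotated gene that overlaps it and had 1 fragment in all libraries together. In stretches of 50 bases the shared part was 48.5% for Ifitm2, 10.02% for Ifitm3, 5.02% for Ifitm1 and 0 for Ifitm6. The level of Ifitm2 is therefore the least certain of the 4. Between 190 and 28211 fragments stood behind each value of a member.

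The libraries labelled KO need care. Xist, which coats the inactive X chromosome in females, had 58.5 FPKM in KO B, and that library had no fragment of Kdm5d, Uty, Ddx3y or Eif2s3y, which lie on the Y chromosome. In KO A the 4 Y-linked genes summed to 26.5 FPKM. Both kinds of transcript were in KO C, with Xist at 26.3 and the Y-linked genes at 14.2 FPKM. The fl and Gr_1 libraries had Xist at 0.0104 FPKM or less. KO C thus lay near the midpoint of KO A and KO B for Xist (0.900 times). Whether the 3 are independent samples is not given, so the SD over KO libraries may understate the spread between animals. The ratios of the members and the counts of interferon-stimulated genes are also given without KO C. The label KO was not matched by a lower level of Socs3 over the whole gene, which had 9.23, 6.76 and 8.37 FPKM in KO A, B and C against 3.405 to 4.02 in fl, and directions rest on the label. Between 18302890 and 21502349 fragments were recovered per library. The FPKM value of 3 fragments in 1 kb of exon was 0.136 to 0.162 in fl, 0.138 to 0.151 in KO and 0.165 to 0.187 in Gr_1.

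Ifitm3 was the most abundant member in fl and, in FPKM as deposited, stood lower in the libraries labelled KO than in both other groups. Its levels were 784, 746 and 778 FPKM in fl A, B and C, 548, 324 and 410 FPKM in KO A, B and C, and 841, 686 and 743 FPKM in Gr_1 A, B and C. In FPKM, all KO libraries lay below all fl and all Gr_1 libraries, while fl and Gr_1 overlapped. That pattern depends on the scaling of the libraries. As a share of the FPKM of all genes, Ifitm3 in KO A was above Gr_1 B, so KO and Gr_1 overlapped. On that scale all fl libraries lay above all Gr_1 libraries. The means were 769 ± 20.1 FPKM in fl, 428 ± 113 in KO and 757 ± 78.6 in Gr_1 (SD, n = 3 each). The fl mean was 1.80-fold the KO mean, and the difference was -0.88 ± 0.17 in log2(FPKM + 1) (SE of the limma fit). Without KO C the KO to fl ratio was 0.567 in place of 0.556. The difference between Gr_1 and fl was -0.03 ± 0.17, less than its error, and its sign was not stable between settings.

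Ifitm6 was the member with the widest range in FPKM. It had 254, 262 and 222 FPKM in fl A, B and C, 537, 299 and 428 FPKM in KO A, B and C, and 1883, 1717 and 1697 FPKM in Gr_1 A, B and C. The 3 groups did not overlap, with fl lowest, KO between and Gr_1 highest, although KO B stood only a little above the highest fl library. The means were 246 ± 21.2, 421 ± 119 and 1766 ± 102 FPKM. The KO mean was 1.71-fold the fl mean, a difference of 0.74 ± 0.19 on the log2 scale, and 1.70-fold without KO C. The Gr_1 mean was 7.17-fold the fl mean (2.84 ± 0.19) and 4.19-fold the KO mean. By mean FPKM Ifitm6 ranked 178 among all genes in fl, 78 in KO and 14 in Gr_1.

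Ifitm1 was the least abundant member and had the largest ratio of KO to fl among the 4. Its levels were 7.89, 9.91 and 18.2 FPKM in fl A, B and C, 50.4, 38.6 and 49.7 FPKM in KO A, B and C, and 108, 94.0 and 75.5 FPKM in Gr_1 A, B and C. Here too the groups lay apart in the order fl, KO, Gr_1, with fl C well above the other fl libraries. The KO mean of 46.2 ± 6.66 FPKM was 3.85-fold the fl mean of 12.0 ± 5.46 (1.93 ± 0.26 on the log2 scale), or 3.71-fold without KO C. The Gr_1 mean of 92.5 ± 16.3 FPKM was 7.71-fold the fl mean (2.91 ± 0.26). That ratio was 10.4 without fl C.

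Ifitm2 differed from the other members. It had 234, 215 and 127 FPKM in fl A, B and C, 196, 144 and 161 FPKM in KO A, B and C, and 414, 386 and 366 FPKM in Gr_1 A, B and C. All Gr_1 libraries were above all others, and the KO libraries lay within the range of fl. The means were 192 ± 57.1 FPKM in fl, 167 ± 26.3 in KO and 389 ± 23.8 in Gr_1. The KO to fl difference was -0.16 ± 0.21 on the log2 scale and turned to 0.00 without fl A, so no direction is given for it. The KO to fl ratio was 0.870, and 0.885 without KO C. The Gr_1 mean was 2.02-fold the fl mean (1.06 ± 0.21).

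**Figure D1:**
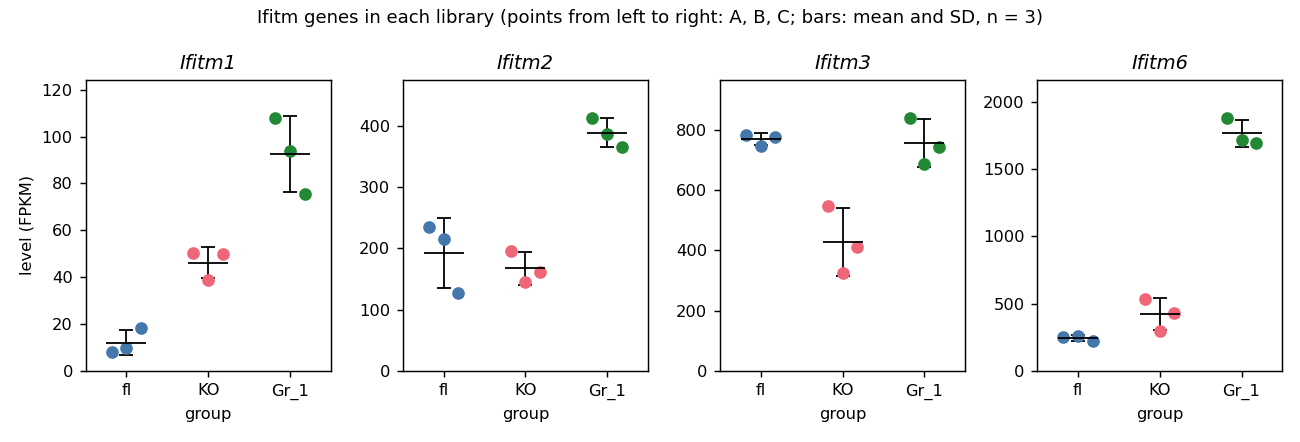
Level of each Ifitm gene in FPKM (vertical axes from 0, a scale per gene) in the fl, KO and Gr_1 libraries. Points from left to right are libraries A, B and C, and bars give the mean and SD (n = 3). Ifitm3 is lowest in KO, Ifitm1 and Ifitm6 are ordered fl, KO, Gr_1, and Ifitm2 stands apart only in Gr_1.

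Counted over the members, the KO and fl libraries did not overlap for 3 of 4 genes, 2 higher and 1 lower in KO. Among all 12289 genes tested 13.5% lay apart with KO higher and 17.9% with KO lower. The Gr_1 and fl libraries did not overlap for 3 members, all higher in Gr_1, where 32.7% of all genes lay apart in that direction. In FPKM as deposited, KO lay below Gr_1 for all 4, where 34.6% of all genes did. These counts use the contrasts in which the genes were picked, and nothing is read from them.

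The makeup of the family differed between fl and KO, while their sums overlapped. The 4 genes together had 1220 ± 68.5 FPKM in fl, 1062 ± 263 in KO and 3004 ± 210 in Gr_1. Ifitm3 held 63.2 ± 4.08% of this sum in fl, 40.2 ± 1.03% in KO and 25.2 ± 1.19% in Gr_1. Ifitm6 held 20.2 ± 0.972%, 39.4 ± 1.996% and 58.8 ± 0.772% in the same order. Within KO these shares varied little although the sum ranged from 806 FPKM in KO B to 1332 in KO A. The ratio of Ifitm6 to Ifitm3, which does not depend on scaling between libraries, was 0.286 to 0.351 in fl, 0.923 to 1.04 in KO and 2.24 to 2.504 in Gr_1. Of the difference of 1784 FPKM in the sum between Gr_1 and fl, Ifitm6 carried 85.2%, Ifitm2 11.0% and Ifitm1 4.51%. Ifitm1 held 1.003 ± 0.516% of the sum in fl, 4.44 ± 0.563% in KO and 3.07 ± 0.391% in Gr_1, so its share was not ordered as its level.

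**Figure D2:**
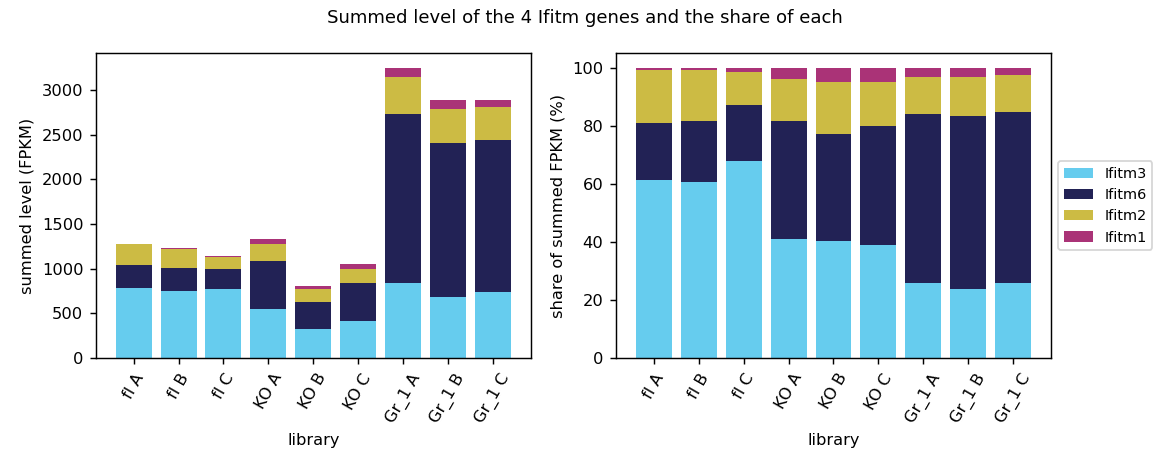
Summed level of the 4 Ifitm genes in FPKM (left) and the share of each in that sum in percent (right), with 1 bar per library. As a share, the Ifitm3 part is largest in fl and smallest in Gr_1, and the Ifitm6 part is smallest in fl and largest in Gr_1.

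Inside the KO group the members had the same order of libraries. KO A was highest and KO B lowest for all 4 genes, and KO C had 0.941 to 1.12 times the midpoint of KO A and KO B. For Xist too KO C lay near that midpoint. Its independence from KO A and KO B is not given, so its place between them adds little. The order is then mainly that of KO A against KO B. The summed level of 11 neutrophil markers had the same order, with 100464, 69865 and 82664 FPKM in KO A, B and C. So did 7 macrophage markers (117, 76.1 and 94.8 FPKM), 5 B cell markers (67.4, 36.7 and 50.7) and, in a narrow range, 7 monocyte markers (634, 612 and 619). The reverse order was seen for 5 early granulocyte markers (3103, 6571 and 4929 FPKM), 4 eosinophil markers (4410, 8997 and 6583), 5 NK cell markers (13.1, 26.1 and 19.2) and 5 basophil and mast cell markers (336, 438 and 390). Dendritic cell, progenitor, epithelial, and endothelial and fibroblast marker sums ran in that reverse order as well. KO C lay outside the range of KO A and KO B for 6 T cell markers (6.07, 6.24 and 7.54 FPKM) and 6 erythroid and platelet markers (93.8, 93.0 and 89.1). Xist had 0.0028 FPKM in KO A, 58.5 in KO B and 26.3 in KO C. The part of cell makeup and of sex in the spread of the members was not tested.

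Across groups, the levels of markers of several cell types differed as well, in patterns that were not all those of the members. In bulk samples fewer cells of a type and less RNA per cell cannot be told apart. The neutrophil marker sum was 63925 to 71142 FPKM in fl, 69865 to 100464 in KO and 169627 to 172566 in Gr_1. Of its 11 genes, 6 rose in KO against fl and 10 rose in Gr_1 against fl, with none lower in either at a limma adjusted p under 0.05. Of all 12289 genes tested, 4.48% rose in KO and 30.0% in Gr_1. The sum of 7 monocyte markers ran the other way, with 819 to 940, 612 to 634 and 411 to 459 FPKM. The 5 early granulocyte markers had 3795 to 5654 FPKM in fl, 3103 to 6571 in KO and 187 to 295 in Gr_1. Basophil and mast cell markers (5 genes) had 91.3 to 207 FPKM in fl, 336 to 438 in KO and 88.9 to 170 in Gr_1, and T cell markers (6 genes) 0.881 to 1.78, 6.07 to 7.54 and 4.54 to 5.80. In Gr_1 the T cell sum was mostly Cd3d, at a mean of 4.04 FPKM against 0.393 in fl, while Trac had 0.446 against 0.401. B cell markers (5 genes) had 54.2 to 76.1, 36.7 to 67.4 and 204 to 226 FPKM, and NK cell markers 6.50 to 9.62, 13.1 to 26.1 and 2.31 to 3.14. The 7 macrophage markers had 166 to 172 FPKM in fl, 76.1 to 117 in KO and 117 to 127 in Gr_1, and of the 6 tested 3 fell in KO against fl and none rose. In Gr_1 against fl 4 of the 6 rose and 2 fell, beside 30.0% and 31.4% of all genes. The 2 that fell, Cd68 and Adgre1, made up most of the sum in fl, with means of 106 and 41.5 FPKM. The 4 eosinophil markers had 4035 to 8588, 4410 to 8997 and 1289 to 1660 FPKM, and 6 erythroid and platelet markers 33.8 to 58.5, 89.1 to 93.8 and 82.5 to 170. All 6 erythroid and platelet genes had a positive log2 difference in KO against fl, but none was called. The largest part of that sum was Hba-a1, at a mean of 24.8 FPKM in fl and 49.5 in KO. Sums over 4 dendritic cell markers were 2.47 to 3.84, 5.25 to 6.28 and 1.99 to 2.25, and over 5 progenitor markers 16.1 to 19.1, 23.97 to 32.8 and 18.7 to 24.1. The progenitor sum hides opposite directions, as of 4 tested 1 rose and 2 fell in Gr_1 against fl. No marker of these lists was at 0 in any library. The sums over 4 epithelial markers stayed at 10.4 FPKM or less and those over 5 endothelial and fibroblast markers at 10.6 or less, with Krt8 and Col3a1 at 0 in some libraries. Their part in the levels of the members was not tested.

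Genes whose levels followed each member most closely were sought among 6567 genes at a mean of 5 FPKM or more. Pearson's r of log2(FPKM + 1) over the 9 libraries is given as a description, and it rests largely on the 3 groups. For Ifitm6 the closest were Antxr2, an anthrax toxin receptor gene (r = 0.998, 5.98 FPKM in fl, 9.44 in KO and 26.7 in Gr_1), Kbtbd7 (0.998) and the gasdermin gene Gsdme (0.998). For Ifitm3 they were Trafd1 (0.985, with 27.5, 20.2 and 27.2 FPKM), the histone deacetylase gene Hdac5 (0.983) and Ugt1a7c (0.981). For Ifitm1 they were the septin gene Sept1 (0.988, with 43.2, 56.4 and 67.9 FPKM), Rab37 (0.986) and the autophagy tether gene Epg5 (0.979). For Ifitm2 they were Eif4e3 (0.987, with 16.04, 14.4 and 26.4 FPKM), Abi1 (0.985) and Arhgef3 (0.984). Between members the r was 0.88 for Ifitm2 with Ifitm6, 0.86 for Ifitm1 with Ifitm6 and -0.15 for Ifitm1 with Ifitm3.

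The other genes of the interferon response gave a test that did not use the members. Their list was drawn up with earlier results of these data known, so it is not an independent test. The list held 65 interferon-stimulated genes, of which 61 passed the filter of 1 FPKM in at least 3 libraries. Calls were made in limma with Benjamini-Hochberg adjustment over all 12289 genes, at a threshold of 0.05. In KO against fl 2 of the 61 rose and 6 fell (3.28% and 9.84%), where 4.48% of all genes rose and 6.52% fell. The list's median log2 difference was -0.18, against -0.01 over all genes. The count of lower genes depended on the setting. It was 11 with voom (929 of all genes lower), 10 with the replicate block (622 of all genes), 10 without KO A (747 of all genes), 3 without fl A and 3 with no filter. Without KO C none rose and 2 fell, with 573 genes called in all in place of 1352. Without fl A or fl B 818 and 730 genes were called. With the 10 most abundant genes left out of the scaling 812 genes were higher and 577 lower in place of 551 and 801. At an unadjusted p under 0.05 in limma, 3 of the 61 were higher and 16 lower, beside 3233 of all 12289 genes in both directions together.

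Ly6e, which encodes a surface protein with antiviral effects, fell from 197 ± 8.98 FPKM in fl to 130 ± 9.45 in KO (log2 difference -0.59 ± 0.08, limma adjusted p = 0.0025, lower in 3 of 3 libraries). Shisa5 fell from 78.9 ± 3.28 to 49.5 ± 6.59 FPKM (adjusted p = 0.00296). Both stayed called whichever library was left out. Ifi27 rose from 23.8 ± 2.65 to 39.1 ± 6.38 FPKM (adjusted p = 0.0102), but its adjusted p was 0.0507 without KO C. Oas1g, a synthetase of the antiviral 2-5A pathway, was called higher (4.07 against 2.003 FPKM, adjusted p = 0.0467) but lost the call in 6 of 9 fits on fewer libraries, those without fl B, fl C, KO A, KO B, KO C or Gr_1 C. The other called genes, all lower, were Mx2, Ifi27l2a, Trim25 and Tor3a. Ifi27l2a, for example, had 297 ± 51.7 FPKM in fl and 129 ± 59.3 in KO.

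In Gr_1 against fl 22 of the 61 rose and 11 fell (36.1% and 18.03%), beside 30.0% and 31.4% of all genes. The median log2 difference of the list was 0.13, against -0.03 over all genes. With the 10 most abundant genes left out of the scaling the counts became 18 and 17, and over all genes 3081 higher and 4586 lower in place of 3686 and 3864. Ifi27 rose further, to 67.3 ± 4.43 FPKM (limma adjusted p = 1.95e-05), and Isg20, an exonuclease gene, from 7.18 ± 0.717 to 14.1 ± 1.86 FPKM (adjusted p = 9.71e-05). Ly6e fell to 86.5 ± 5.396 FPKM and Tor3a from 11.8 ± 1.25 to 4.73 ± 0.631. The differences of Ifitm1 (2.91) and Ifitm6 (2.84) were above that of each of the 61 genes, whose highest was 2.21. The members were picked with these values in view, so nothing is read from that.

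In KO against Gr_1 6 of the 61 genes were higher and 25 lower (9.84% and 41.0%), beside 26.7% and 28.9% of all genes. The counts were 10 and 18 with the 10 most abundant genes left out of the scaling, which moved the median of all genes from 0.01 to 0.16, with 4800 genes higher and 2560 lower in place of 3287 and 3556. Isg20 and Lgals9, the galectin 9 gene, were lower in KO (log2 differences of -0.86 ± 0.10 and -0.69 ± 0.09, adjusted p = 0.000178 and 0.000313 in limma). Ly6e and Tor3a were higher. The comparisons of KO and of Gr_1 with fl share the fl libraries, and KO against Gr_1 shares libraries with both.

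Listed genes with and without a response element core in the promoter window were counted apart. Of 25 genes with a match, 1 rose and 1 fell in KO against fl and 10 rose and 4 fell in Gr_1 against fl. Of 21 without a match, 0 rose and 1 fell, and 8 rose and 3 fell. Of all genes 4.48% rose and 6.52% fell in KO against fl, and 30.0% rose and 31.4% fell in Gr_1 against fl. In KO against Gr_1, 1 was higher and 9 lower with a match, and 1 higher and 11 lower without, beside 26.7% and 28.9% of all genes. The median log2 difference was 0.42 with and 0.13 without a match in Gr_1 against fl, and -0.25 with and -0.41 without in KO against Gr_1. This grouping was made after the data were seen and has no test.

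**Figure D3:**
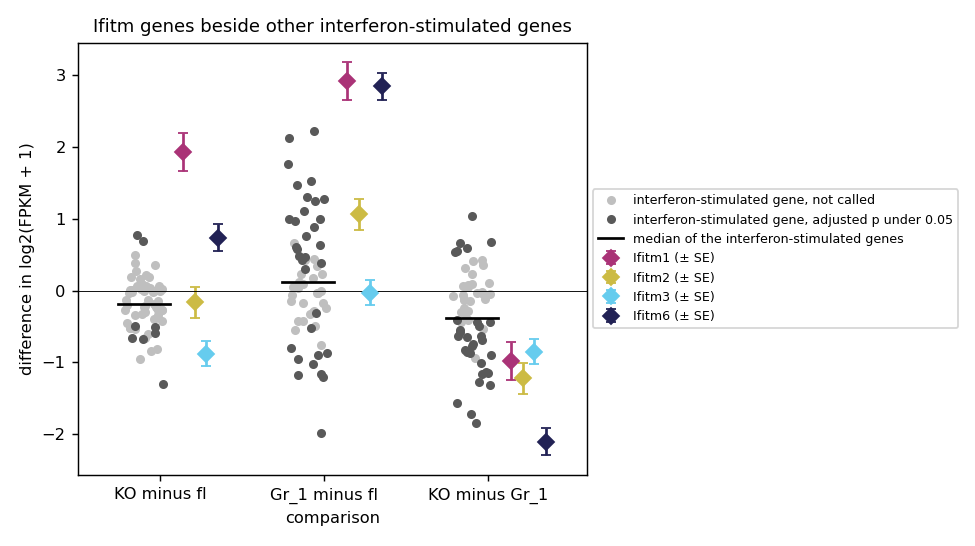
Differences in log2(FPKM + 1) in the 3 comparisons for the 61 other interferon-stimulated genes (grey points, dark where limma called them, line at their median) and for the Ifitm genes (diamonds, ± SE). Ifitm1 and Ifitm6 lie above every listed gene in Gr_1 minus fl, and in KO minus fl Ifitm1 lies at 1.93 where the highest listed gene has 0.77. The Ifitm genes were picked by values of these groups and the listed genes are shown for description.

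Receptors and signalling genes of the interferon pathway were tested as well. Of 21 genes, 2 rose and 5 fell in KO against fl, 10 rose and 4 fell in Gr_1 against fl, and 4 were higher and 12 lower in KO against Gr_1. In these comparisons 4.48% and 6.52%, 30.0% and 31.4%, and 26.7% and 28.9% of all genes were called higher and lower. Irf5, an interferon regulatory factor, fell from 84.9 ± 1.12 FPKM in fl to 33.5 ± 4.69 in KO and 21.9 ± 2.38 in Gr_1 (limma adjusted p = 0.000456 and 2.95e-06). Irf8, a factor of monocyte fate, fell from 24.6 ± 1.76 to 14.1 ± 1.72 and 9.90 ± 0.378 FPKM. Ifnlr1, the specific receptor chain for interferon lambda, rose from 5.07 ± 0.289 to 9.71 ± 2.85 FPKM in KO (adjusted p = 0.0152, up to 0.0598 and not called without KO C or fl B) and to 35.1 ± 1.04 in Gr_1. Socs3 rose from 3.76 ± 0.318 FPKM in fl to 8.12 ± 1.25 in KO and 35.5 ± 2.21 in Gr_1, and Stat3 had 26.6 to 30.8 FPKM in KO against 27.6 to 32.0 in fl and 42.8 to 45.2 in Gr_1. Against Gr_1, the receptor gene Ifngr1 and the kinase gene Tyk2 were higher in KO and Jak1 was lower.

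Genes that act on IFITM proteins or bind them were tested as a further list. Of 16 tested of 18 listed, 4 rose and none fell in KO against fl, beside 4.48% and 6.52% of all genes. In Gr_1 against fl 6 rose and 3 fell (37.5% and 18.8%, beside 30.0% and 31.4%), and in KO against Gr_1 1 was higher and 5 were lower (beside 26.7% and 28.9%). At an unadjusted p under 0.05 in limma, 4 were higher and 1 was lower in KO against fl, beside 3233 of all 12289 genes in both directions together. Nedd4, a ubiquitin ligase that marks IFITM3, rose from 15.9 ± 0.721 FPKM in fl to 22.7 ± 0.405 in KO (log2 difference 0.49 ± 0.05, limma adjusted p = 0.00129). Zmpste24, a membrane protease that works with IFITM proteins, rose from 17.6 ± 1.75 FPKM in fl to 56.7 ± 0.691 in Gr_1 (adjusted p = 1.11e-05) and had 26.1 ± 4.88 FPKM in KO. The tetraspanin gene Cd9 rose from 72.5 ± 2.66 to 190 ± 6.88 FPKM in Gr_1. It was called higher in KO too (101 ± 16.6 FPKM). That call was lost on leaving out fl A, fl B, fl C, KO C or Gr_1 A, where the adjusted p in limma reached 0.0862. In Gr_1 Fyn and Osbp fell, Osbp not without Gr_1 A or Gr_1 B (adjusted p up to 0.0672). Against Gr_1, Zmpste24 was lower in KO and Fyn was higher.

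Genes around the cluster were tested for the same comparisons. Of 57 protein-coding genes within 500 kb of the members, 27 were tested. In KO against fl none rose and 1 fell, Chid1, whose call held in only 1 of 9 fits on fewer libraries, that without Gr_1 C. Of all genes 4.48% rose and 6.52% fell. At an unadjusted p under 0.05 in limma, 1 neighbour was higher and 4 were lower, beside 3233 of all 12289 genes in both directions together. In Gr_1 against fl 7 rose and 12 fell (25.9% and 44.4%, beside 30.0% and 31.4% of all genes). The nearest tested gene below the cluster, Ifitm5, had 0.50 to 1.13 FPKM in fl and 0.42 to 1.05 in KO and was not called in any comparison. Pgghg, 7.17 kb below, rose by 0.65 on the log2 scale in Gr_1 against fl. The proteasome gene Psmd13 (56.2 kb below) fell by 0.23, Pkp3 (60.3 kb above), a plakophilin gene, fell by 0.54 and the deacetylase gene Sirt3 (72.5 kb below) fell by 0.27. Irf7, the interferon regulatory factor that amplifies the type I response, lies 245 kb above. It had 22.8, 14.7 and 19.7 FPKM in fl A, B and C, 20.2, 7.42 and 13.6 in KO A, B and C, and 27.6, 19.4 and 25.9 in Gr_1 A, B and C. It was not called against fl in either group and was lower in KO than in Gr_1 (log2 difference -0.86). Within each group library B was the lowest for Irf7. In Gr_1, the RNase inhibitor gene Rnh1 and Cracr2b fell, and Pnpla2 and Ric8a rose.

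**Figure D4:**
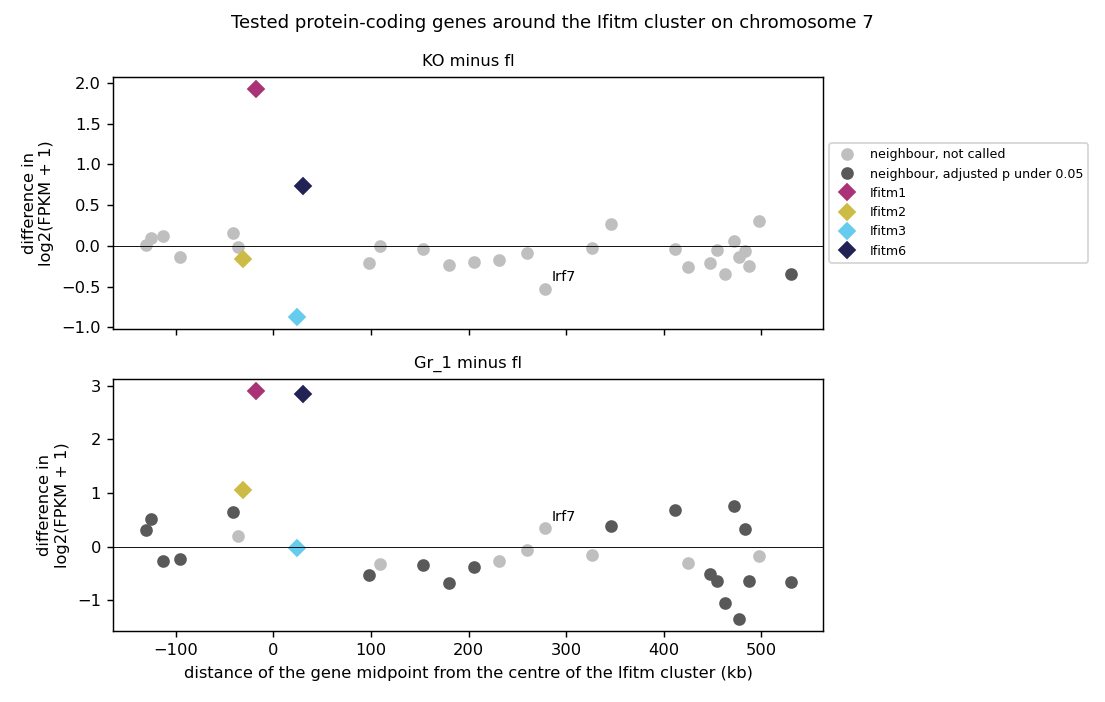
Differences in log2(FPKM + 1) for KO minus fl (top) and Gr_1 minus fl (bottom) against the distance of each gene's midpoint from the centre of the Ifitm cluster in kb. Diamonds are Ifitm genes and points the 27 tested neighbours, dark where limma called them. In KO minus fl the neighbours stay between -0.53 and 0.30, while Ifitm1 lies at 1.93 and Ifitm3 at -0.88. The Ifitm genes were picked by values of these groups.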

How the data were processed

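Total RNA of 9 myeloid cell libraries (3 per group) was sequenced as paired-end reads, per the labels' protocols. The deposited table gives, per the file headers, FPKM for 54532 Ensembl genes in each library. The submitters' processing notes name featureCounts (1.5.0-p3), DESeq2 (1.16.1) and 2 build names, mm10 and GRCm38, and do not say what each was used for. No aligner is named in the sources used here. GENCODE M21 gave symbols, coordinates and exon lengths for all but 37 genes.

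FPKM multiplied by exon length moved in steps of 1 fragment, with a scaling total of 16014028 to 22003402 fragments per library. This total lay above the recovered fragments in fl and KO and below them in Gr_1, so values were not scaled by those sums alone, which bears on ratios between groups. Between 97.2% and 97.5% of values under 1000 fragments came out whole within 0.02, and 3 fragments of a gene with 1 kb of exon equal 0.136 to 0.187 FPKM, a floor that covers counting error only.

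The fit in limma (3.58.1, under R 4.3.3) took log2(FPKM + 1) of the 12289 genes that reached 1 FPKM in 3 or more libraries. It held all 9 libraries, used limma's trend option and had no block. Differences on this scale understate those of low genes. Tests were two-sided with Benjamini-Hochberg adjustment over all genes. On simulated libraries 172 of 200 genes changed by 1 on the log2 scale in KO were recovered for KO against fl, among 12289 genes. The simulated libraries were independent, with 1 spread per gene for all groups and no other gene changed. The recovery therefore does not cover a spread that differs between groups or KO libraries that depend on each other, and may be too high for these data.

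The members and the gene lists were chosen with earlier results of these data known. Named are the members, Socs3, Stat3, the 3 genes most like each member, up to 2 called genes per direction of each list and comparison by adjusted p, the nearest tested neighbours and the 4 nearest called ones. Mx2, Ifi27l2a, Trim25, Irf7 and Ifitm7 were named after their values were seen. Other settings were a pseudocount of 0.1, 2 filters, 2 scalings, 6 libraries per fit, a block, voom and leaving out each library. Python 3.11.15 with numpy 2.4.6, pandas 2.3.3 and matplotlib 3.10.9 made tables and figures. A gene that this rule also names is not reported here.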

Additional observations from a re-analysis of the deposited data

How the results depend on the processing

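Of 204 recomputed differences of the members, 203 stayed within their replicate spread and none reversed a direction that was given. The exception was Ifitm6 in KO against Gr_1, at -1.77 with quantile normalization in place of -2.10. Filters, fits on the 6 libraries compared, the block and leaving out a library of the group not compared cannot change a difference. Those settings are among the 204 and are no check on it. Ifitm2 in KO against fl and Ifitm3 in Gr_1 against fl changed sign in 1 setting each, to 0.00 without fl A and 0.04 without Gr_1 B. The number of genes called in KO against fl was 794 with only the 6 libraries compared and 573 to 1261 with 1 library left out, against 1352. The interferon-stimulated genes called higher in KO against fl numbered 1 with a pseudocount of 0.1, with no filter, with a filter of 5 FPKM or with quantile normalization, and 0 to 3 with 1 library left out. Those called lower numbered 3 with no filter, 11 with voom on recovered fragments (1621 genes called in all) and 2 to 10 with 1 library left out, 10 of them without KO A, 3 without fl A and 2 without KO C. With the 10 most abundant genes left out of the scaling, 17 were lower in Gr_1 against fl and 10 higher in KO against Gr_1. The cause of these changes was not tested, except that leaving out libraries lowers the number of samples.

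Over all genes the letters A, B and C showed little pairing of the libraries: of 9 same-letter pairs 1 had a correlation of deviations above 0.1 (range -0.06 to 0.14). That correlation cannot decide on single genes. Ifitm3 and Irf7 ran A, C, B from high to low in each group, while Ifitm1, Ifitm2 and Ifitm6 kept no common order. The block moved the SE of the KO to fl difference from 0.17 to 0.13 for Ifitm3 and from 0.26 to 0.28 for Ifitm1. With the replicate block, 10 interferon-stimulated genes were lower in KO against fl and 18 in Gr_1 against fl, and 1037 genes were called in KO against fl. Values at or below 3 fragments, 0.136 to 0.187 FPKM for 1 kb of exon, cannot be told from 0, and no value of a member was that low.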

Other observations

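The other dispanin genes, relatives of the Ifitm genes, were nearly silent. Of 11 listed, only Ifitm5 and Ifitm10 passed the filter. Ifitm10 had 0.11, 0.07 and 0.10 FPKM in fl A, B and C, 0.66, 0.41 and 0.40 in KO A, B and C, and 1.81, 1.88 and 1.38 in Gr_1 A, B and C, the same order of groups as for Ifitm1 and Ifitm6. It passed the filter through the Gr_1 libraries alone, so its difference between Gr_1 and fl, 1.29 ± 0.12 on the log2 scale, is a description with no test. The call in KO against fl (0.44 ± 0.12, limma adjusted p = 0.0484) was lost without any single fl or KO library (adjusted p up to 0.126), and the gene was not tested without a Gr_1 library. Ifitm7 had at most 0.29 FPKM, in KO B, and was at 0 in 4 libraries.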
